A study of Homo sapiens with 4 samples.

Results

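The 29 genes described here encode the enzymes that make cholesterol, the proteins by which a cell senses its sterol level, and proteins that carry or esterify sterols. They were taken by symbol from the 57979 lines of the deposited expression table that held values, and 28 of the 29 were among the 13246 genes tested, which had an average above 1 FPKM (a count of fragments divided by transcript length and library size). Cholesterol is built from acetyl-CoA through mevalonate, isoprenoid units, squalene and lanosterol. When sterols run low in the endoplasmic reticulum, SCAP escorts SREBP2, the product of SREBF2, to the Golgi, where proteases free its transcription factor domain, which then switches on most genes of the pathway. INSIG proteins hold the SCAP complex back while sterols are plentiful. Liver cells are among the main producers of cholesterol in the body. Other enzymes and targets of the pathway were not analysed here.

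Polyadenylated RNA was sequenced in 4 libraries. There were 2 libraries of wild-type cells and 2 of TXNDC9 knockout cells, all labelled HepG2. The study describes HepG2 as a human hepatocellular carcinoma line and grew it in DMEM with fetal bovine serum. TXNDC9 encodes a thioredoxin domain protein, and the question put to the libraries was which transcripts differ in cells without it. The knockout was made with CRISPR-Cas9, with guides against the first exon in a lentiviral plasmid, and for its protein blot the study took HepG2 cells sorted for Cas9 together with a guide or with the vector alone. Whether the sequenced cells were those sorted cells, which guide they carried and whether the cells labelled wild type carried the vector are not given in the sources used here. The study describes its RNA-seq values as coming from independent experiments, but it gives another number of them than there are libraries in a condition, and the labels tie no library to a culture. The p-values therefore measure only the spread between these libraries, which may be technical.

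The 2 wild-type libraries had TXNDC9 itself at 35.1 and 37.3 FPKM, and the 2 knockout libraries had it at 21.9 and 27.6 FPKM. The knockout values lay below the wild-type values. The difference of -0.55 on the log2 scale (SE 0.14) did not pass the test, at an adjusted p of 0.0145 (limma). It was 0.12 after each library was rescaled to the same sum (TPM) and -0.49 after correction for transcript length and GC content (adjusted p = 0.0187, limma). It passed at -0.70 with libraries centred on their medians (adjusted p = 0.00401, limma) and at -0.55 with a replicate block (adjusted p = 0.00267, limma). By protein blot the study reports reduced TXNDC9 in its knockout cells. The levels of liver cell markers went against the label HepG2. Of 7 such markers, 7 lay under 1 FPKM in every library, among them albumin (ALB), alpha-fetoprotein (AFP), TTR, HNF4A, FOXA2 and TF, and their summed level was 0.446 to 0.612 FPKM in wild type and 0.0243 to 0.174 FPKM in knockout. APOA1, APOB, SERPINA1 and FGB, chosen after the data had been seen, ranged from 0 to 0.0924 FPKM. Of 11 markers of blood, endothelial, fibroblast and squamous cells, 6 lay under 1 FPKM in every library, including CD3E, which was listed at 0, and the summed level of the 11 was 50.0 to 53.4 FPKM in wild type and 36.8 to 41.7 FPKM in knockout. Most of that sum was from COL1A1 (31.5 and 22.8 against 20.7 and 17.5 FPKM, wild type first) and COL3A1 (19.4 and 24.0 against 13.4 and 13.1 FPKM), while CDH5 (0.751 and 1.07 against 4.26 and 3.14 FPKM) and PDGFRB (up to 1.08 against at least 2.62 FPKM) had higher values in both knockout libraries. The part of cell identity in the results below was not tested. The libraries are therefore called by their labels, wild type and TXNDC9 knockout. FPKM summed to 805816 and 971102 in wild type and to 535973 and 568279 in knockout.

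More of the cholesterol genes were higher than lower in TXNDC9 knockout. Both knockout values exceeded both wild-type values for 19 of the 28 genes, against 40.1% of all genes tested, and both were below them for 4, against 45.9% of all genes. At an adjusted p under 0.01, 17 of the 28 rose and 3 fell, against 23.7% and 27.1% of all genes. Of these, 8 rose at least 2-fold (INSIG1, STARD4, LSS, HMGCS1, MSMO1, CYP51A1, SOAT1 and LBR), or 28.6% beside 14.2% of all genes, and PMVK alone fell at least 2-fold, beside 15.3% of all genes. A gene past both thresholds is said below to be called higher or lower. The median log2 fold change, knockout minus wild type, was 0.64 over the 28 genes and -0.09 over all genes tested. In RNA from bulk cultures, fewer cells expressing a gene and less of its RNA per cell cannot be told apart.

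**Figure D1:**
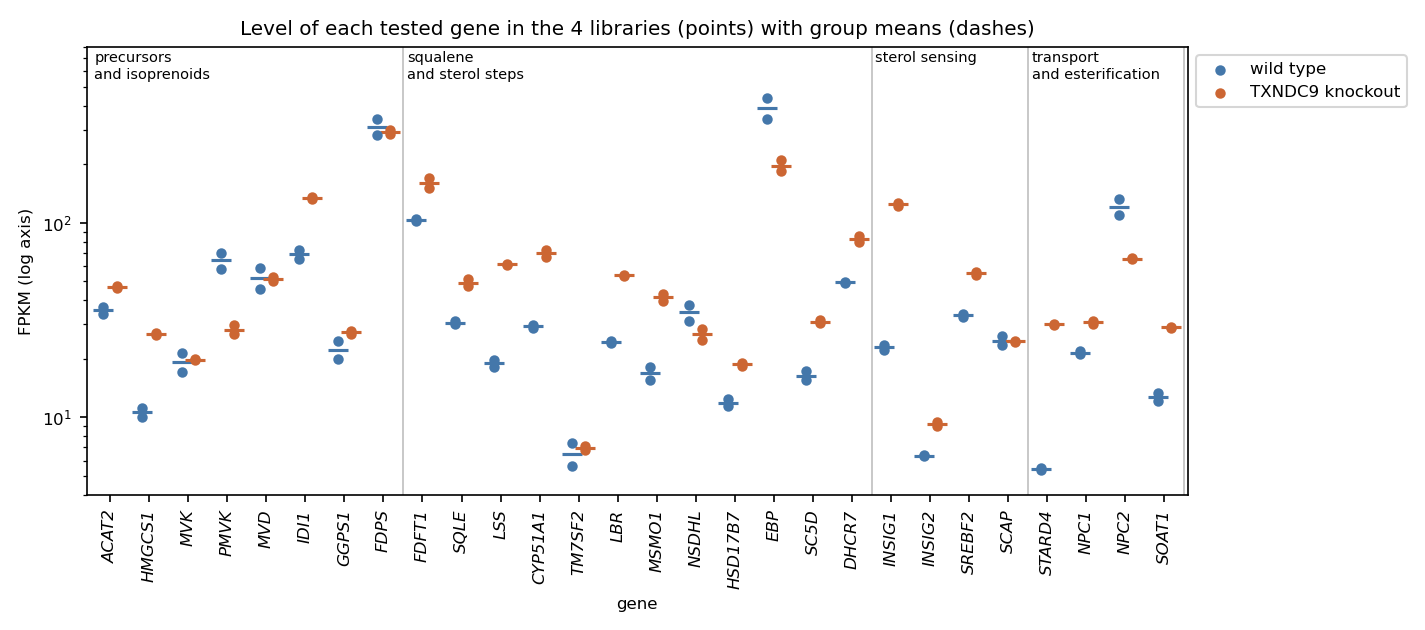
FPKM (log axis) of the 28 tested cholesterol genes in each of the 4 libraries, with wild type in blue, TXNDC9 knockout in orange, points for libraries and dashes for the mean of 2. Both knockout points lie above both wild-type points in 19 genes, with the widest gaps in INSIG1 and STARD4, and below them in 4 genes, PMVK, EBP, NPC2 and NSDHL.

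The numbers of genes called and both medians depended on the scale. The cholesterol median stayed above that of all genes tested on each scale given here. Rescaling to TPM moved the median of all genes from -0.09 to 0.59 and that of the cholesterol genes to 1.32, and it called 18 of the 28 higher and 0 lower, against 33.1% and 3.37% of all genes. Centring each library on its median called 7 higher and 3 lower, against 11.0% and 19.6% of all genes, with medians of 0.50 and -0.23. The difference also followed transcript length across the whole table, since the median log2 fold change went from -0.765 in the 1315 genes with the shortest transcripts to 0.900 in the 1311 with the longest. After each library had been corrected for transcript length and GC content, 6 cholesterol genes were called higher (INSIG1, LSS, STARD4, DHCR7, MSMO1 and TM7SF2) and 0 lower, against 6.41% and 7.39% of all genes, and the medians were 0.60 and -0.05. INSIG1, STARD4, LSS and MSMO1 were called on all these scales. Leaving out either knockout library left no gene called among 13246 (limma), with 7129 and 7307 genes, 19 and 20 of them cholesterol genes, at an unadjusted p under 0.05, while the 9 called cholesterol genes still differed at least 2-fold.

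**Figure D2:**
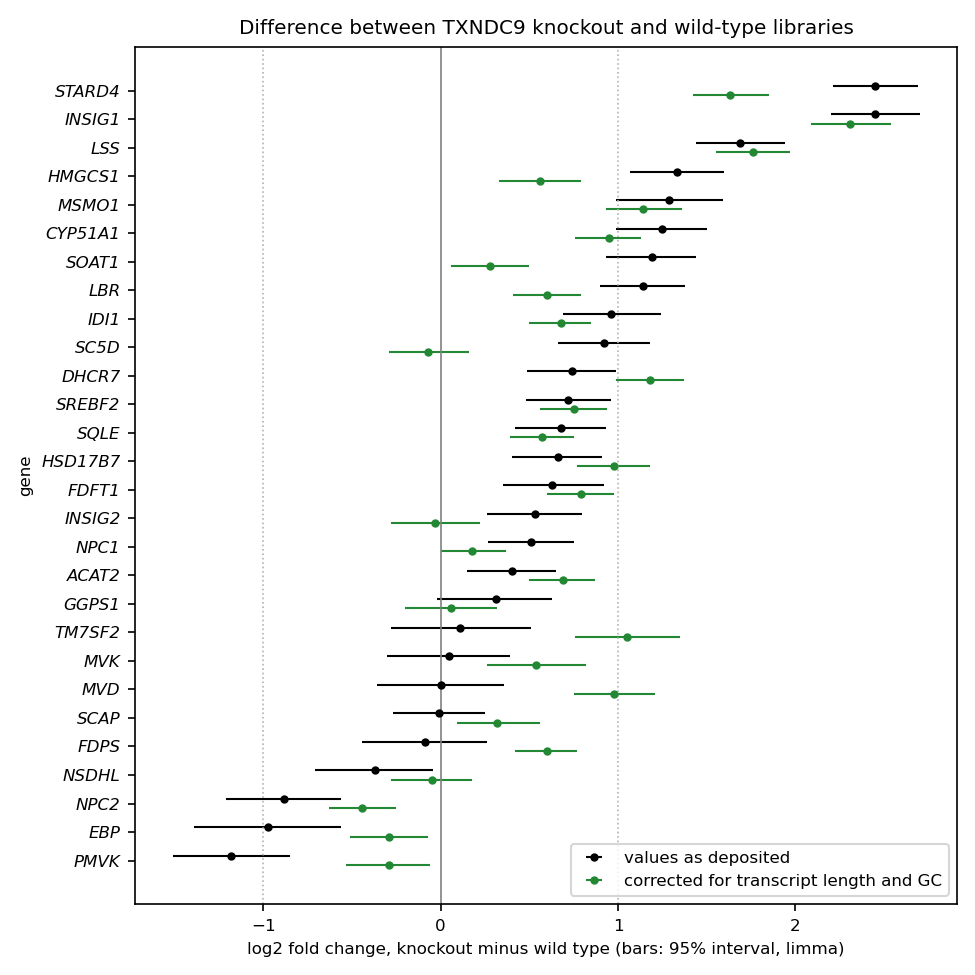
Log2 fold change (knockout minus wild type) of the 28 tested genes with 95% intervals from limma, on the deposited values in black and after correction for transcript length and GC content in green; dotted lines mark 2-fold. INSIG1, STARD4, LSS and MSMO1 lie beyond 2-fold on both scales, while PMVK moves from -1.18 to -0.29 and TM7SF2 from 0.11 to 1.05.

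Among the 4 sterol sensing genes, 3 rose (75.0%, beside 23.7% of all genes tested) and SCAP did not pass the test. INSIG1, which retains the SCAP complex in the endoplasmic reticulum and is itself a target of SREBP2, is a gene of 6 exons in its canonical transcript (hg38, chromosome 7, 155297776 to 155310235, plus strand, ENSG00000186480). It stood at 23.5 and 22.2 FPKM in wild type, against 127 and 122 FPKM in knockout. The 2 conditions were far apart beside the spread within each, with means of 22.8 ± 0.935 and 125 ± 3.70 FPKM (SD, n = 2), a 5.47-fold difference. Its log2 fold change was 2.45 (SE 0.10, 95% interval 2.20 to 2.70, adjusted p = 0.000486), and 2.31 after the correction for length and GC content. Among all genes tested it ranked 216 by log2 fold change, and among the 29 cholesterol genes its level moved from rank 16 in wild type to rank 5 in knockout.

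INSIG2, the paralogue of INSIG1, has the same retaining role and was the less abundant of the pair. Its levels were 6.32 and 6.41 FPKM in wild type, against 9.41 and 9.06 FPKM in knockout, a log2 fold change of 0.53 (SE 0.11, adjusted p = 0.00658). After the correction it was -0.03 (adjusted p = 0.809), so its direction rested on the scale. Within a library, INSIG1 exceeded INSIG2 3.72-fold and 3.46-fold in wild type and 13.5-fold in both knockout libraries. The log2 fold changes of the 2 paralogues differed by 1.92, and by 2.34 after the correction.

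SREBF2, which encodes the transcription factor SREBP2, stood at 32.8 and 34.1 FPKM in wild type, against 55.8 and 54.2 FPKM in knockout. The groups did not overlap, and the log2 fold change was 0.72 (SE 0.10, 95% interval 0.48 to 0.96, adjusted p = 0.00162) on the deposited values and 0.75 after the correction. An antisense gene, SREBF2-AS1, overlaps its exons on the other strand and stood at 2.71 and 3.50 FPKM in wild type, against 1.37 and 1.50 FPKM in knockout. SCAP, the escort of SREBP2, stood at 26.1 and 23.5 FPKM in wild type, against 24.4 and 24.8 FPKM in knockout. Its log2 fold change of -0.01 had a 95% interval from -0.27 to 0.25, and it became 0.67 on the TPM scale and 0.32 after the correction. Within a library the ratio of INSIG1 to SCAP was therefore 0.899 and 0.944 in wild type and 5.21 and 4.92 in knockout.

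The promoters of 5 of the cholesterol genes are printed to show what the largest rises, SREBF2 and the largest fall had upstream. Each window runs from 250 bases before to 50 bases after the transcript start, in the direction of the gene, from RefSeq on GRCh38.p14. Capitals mark a sterol response element (TCACNCCAC), an E-box (CACGTG) or a CCAAT box (CCAAT), each searched on both strands. The windows are INSIG1 at chr7:155297628-155297927 (plus strand), STARD4 at chr5:111512486-111512785 (minus), LSS at chr21:46228725-46229024 (minus), SREBF2 at chr22:41832855-41833154 (plus) and PMVK at chr1:154936670-154936969 (minus).
INSIG1: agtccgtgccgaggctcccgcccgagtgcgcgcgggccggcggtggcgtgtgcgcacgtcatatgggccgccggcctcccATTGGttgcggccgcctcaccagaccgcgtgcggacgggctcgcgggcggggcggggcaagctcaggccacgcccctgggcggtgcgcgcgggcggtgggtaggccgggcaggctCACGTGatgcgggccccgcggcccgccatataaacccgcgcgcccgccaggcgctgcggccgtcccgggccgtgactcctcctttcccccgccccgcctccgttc
STARD4: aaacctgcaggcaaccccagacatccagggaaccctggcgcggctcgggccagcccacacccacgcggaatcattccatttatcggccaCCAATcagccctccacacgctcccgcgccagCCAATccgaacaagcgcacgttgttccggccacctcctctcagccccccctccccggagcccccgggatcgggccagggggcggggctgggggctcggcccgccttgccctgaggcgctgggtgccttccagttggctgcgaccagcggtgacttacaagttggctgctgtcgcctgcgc
LSS: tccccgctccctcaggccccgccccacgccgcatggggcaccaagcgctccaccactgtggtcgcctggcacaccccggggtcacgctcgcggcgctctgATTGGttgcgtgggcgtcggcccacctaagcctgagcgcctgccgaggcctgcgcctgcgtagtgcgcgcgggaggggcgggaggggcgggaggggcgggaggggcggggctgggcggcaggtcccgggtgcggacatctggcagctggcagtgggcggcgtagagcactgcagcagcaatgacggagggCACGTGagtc
SREBF2: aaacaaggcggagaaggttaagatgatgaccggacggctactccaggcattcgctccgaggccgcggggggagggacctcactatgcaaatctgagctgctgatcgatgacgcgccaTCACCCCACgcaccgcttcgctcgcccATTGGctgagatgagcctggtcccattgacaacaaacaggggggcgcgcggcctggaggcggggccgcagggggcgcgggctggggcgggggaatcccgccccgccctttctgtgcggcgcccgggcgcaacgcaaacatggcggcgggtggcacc
PMVK: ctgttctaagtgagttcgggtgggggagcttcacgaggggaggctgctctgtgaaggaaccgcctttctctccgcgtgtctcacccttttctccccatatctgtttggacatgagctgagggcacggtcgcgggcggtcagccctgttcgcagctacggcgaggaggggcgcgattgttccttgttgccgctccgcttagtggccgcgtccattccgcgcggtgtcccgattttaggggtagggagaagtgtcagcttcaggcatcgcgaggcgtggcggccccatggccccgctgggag
INSIG1 held a CCAAT box on the minus strand at position -170 from the start and an E-box at -55. STARD4 held a pair of CCAAT boxes at -161 and -130, and LSS a CCAAT box at -150 and an E-box at 41. Among the 25 cholesterol genes with a promoter entry, SREBF2 held the only exact match to TCACNCCAC, at -133, with a CCAAT box at -106. Sterol response elements with other letters or outside the windows were not searched for. PMVK held none of the 3 motifs, only a GC box (GGGCGG) at -119, which is not in capitals.

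Promoter entries were matched for 25 of the 29 genes, with 34 promoters in all. ACAT2, FDFT1, SQLE and SOAT2 had no entry. A CCAAT box lay in 21 of the 34 promoters (61.8%), against 34.6% of all 35116 promoters in the table and 35.0% of the 13138 promoters of tested genes. It was found in 11 of the 15 genes that rose, 2 of the 3 that fell and 6 of the 7 others, so genes with and without a rise held it. The GC box, the usual site of SP1, lay in 30 of 34 (88.2%), against 45.0% of all promoters and 66.9% of those of tested genes. An E-box lay in 5 of 34 (14.7%), those of INSIG1, LSS, SC5D and SCAP, against 7.26% and 9.63%. The sterol response element, searched only as the exact letters TCACNCCAC, lay in 1 of 34 (2.94%), against 1.13% and 1.06%. Adjacent motifs can share letters, and each match was counted on its own. A match describes the letters, not binding.

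The first 8 genes, which lead from acetyl-CoA to farnesyl and geranylgeranyl diphosphate, were divided. HMGCS1 and IDI1 rose, PMVK fell and 5 did not pass the test. The rises were 25.0% of the 8, near the 23.7% of all genes tested that rose, and 27.1% of all genes fell. The median log2 fold change was 0.18, against -0.09 over all genes tested. HMGCS1, the synthase that makes HMG-CoA in the cytosol, stood at 10.0 and 11.2 FPKM in wild type, against 26.5 and 27.2 FPKM in knockout. Both knockout libraries had more than 2 times the level of either wild-type library, with a log2 fold change of 1.33 (SE 0.11, adjusted p = 0.000538) that came to 0.56 (adjusted p = 0.00555) after the correction. IDI1, which isomerises isopentenyl diphosphate, stood at 65.3 and 72.6 FPKM in wild type, against 133 and 136 FPKM in knockout. Its log2 fold change was 0.96 (SE 0.11, adjusted p = 0.000998), just under 2-fold, and 0.68 after the correction.

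PMVK, the kinase that adds the second phosphate to mevalonate, stood at 58.1 and 70.2 FPKM in wild type, against 29.8 and 26.7 FPKM in knockout. All knockout values were below all wild-type values, and its place among the 29 genes moved from rank 6 to rank 20. Its log2 fold change was -1.18 (SE 0.13, 95% interval -1.51 to -0.85, adjusted p = 0.000969), -0.50 on the TPM scale and -0.29 (adjusted p = 0.0432) after the correction. It has one of the shortest canonical transcripts of the group, at 1002 bases (hg38, chromosome 1, 154924740 to 154936719, minus strand, 5 exons), with no exon shared with another annotated gene.

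MVK and MVD, which act before and after PMVK, did not pass the test. MVK, which makes phosphomevalonate, stood at 17.0 and 21.5 FPKM in wild type, against 19.6 and 19.9 FPKM in knockout, and MVD, which makes isopentenyl diphosphate, at 45.4 and 58.5 against 50.4 and 52.8 FPKM. In both genes the knockout values lay between the wild-type values, and the 95% intervals of the log2 fold change ran from -0.30 to 0.39 and from -0.36 to 0.36. After the correction MVD came to 0.98 (adjusted p = 0.00148) and MVK to 0.54 (adjusted p = 0.0114). MMAB, which overlaps MVK on the other strand, stood at 42.4 and 54.6 against 30.0 and 32.6 FPKM, wild type first.

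FDPS, which makes farnesyl diphosphate at the branch to the non-sterol isoprenoids, was the second most abundant of the 29 genes in wild type. It stood at 284 and 340 FPKM in wild type, against 287 and 298 FPKM in knockout, with a log2 fold change of -0.09 (95% interval -0.44 to 0.26, adjusted p = 0.602). This value was 0.59 on the TPM scale and 0.60 (adjusted p = 0.00226) after the correction. Of its 8 named pseudogenes, which can take reads from the parent gene, 7 were listed at 0 and FDPSP8 at up to 0.125 FPKM. GGPS1, which makes geranylgeranyl diphosphate, stood at 19.9 and 24.6 FPKM in wild type, against 26.9 and 27.9 FPKM in knockout (log2 fold change 0.31, adjusted p = 0.0838). ACAT2, the cytosolic thiolase of the first step, stood at 34.1 and 36.9 against 46.2 and 47.5 FPKM (log2 fold change 0.40, adjusted p = 0.0150). In both the knockout values were above the wild-type values without passing the test on the deposited values. After the correction ACAT2 came to 0.69 and passed (adjusted p = 0.00184, limma), while GGPS1 came to 0.06 (adjusted p = 0.648, limma). On the TPM scale ACAT2 was at 1.08 and GGPS1 at 0.99. TCP1, which overlaps ACAT2 on the other strand, stood at 206 and 216 against 164 and 168 FPKM, wild type first. ARID4B, which overlaps GGPS1 on the other strand, stood at 4.16 and 2.95 against 10.5 and 10.8 FPKM.

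Of the 12 genes from squalene to cholesterol, 9 rose, EBP fell, and TM7SF2 and NSDHL did not pass the test. The rises were 75.0% of the 12, while 23.7% of all genes tested rose and 27.1% fell. LSS, the cyclase that folds oxidised squalene into lanosterol, stood at 19.8 and 18.1 FPKM in wild type, against 61.7 and 60.7 FPKM in knockout. It had the highest fold among these enzymes, 3.23-fold, with a log2 fold change of 1.69 (SE 0.10, 95% interval 1.44 to 1.94, adjusted p = 0.000496), and it was nearly the same after the correction, at 1.76. LSS lies on hg38 chromosome 21, 46188141 to 46228824, on the minus strand, with 22 exons. FDFT1, the squalene synthase, and SQLE, the squalene epoxidase, act just before it. FDFT1 stood at 102 and 104 FPKM against 151 and 169 FPKM, and SQLE at 30.0 and 31.4 against 47.3 and 51.2 FPKM, wild type first. Both rose, by 0.63 (adjusted p = 0.00442) and 0.68 (adjusted p = 0.00230) on the log2 scale.

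CYP51A1 and MSMO1, which take methyl groups off lanosterol and its products, rose at least 2-fold. CYP51A1 stood at 28.9 and 29.8 FPKM in wild type, against 66.7 and 72.8 FPKM in knockout, a log2 fold change of 1.25 (SE 0.10, adjusted p = 0.000551) that was 0.95 after the correction. MSMO1 stood at 15.5 and 18.2 FPKM in wild type, against 39.8 and 42.9 FPKM in knockout, a log2 fold change of 1.29 (SE 0.12, adjusted p = 0.00065) that was 1.14 after the correction. NSDHL, which acts in the same demethylation, did not pass the test, with 31.4 and 37.9 FPKM in wild type, against 25.0 and 28.4 FPKM in knockout. Its log2 fold change was -0.37 (95% interval -0.71 to -0.04, adjusted p = 0.0507), 0.31 on the TPM scale and -0.05 after the correction. HSD17B7, the ketosteroid reductase of the same step, stood at 11.4 and 12.4 against 18.4 and 19.1 FPKM and rose by 0.66 (adjusted p = 0.00267), or 0.98 after the correction.

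TM7SF2 and LBR encode the sterol C14 reductases, and LBR is also a receptor of the inner nuclear membrane that binds lamin B. LBR stood at 24.8 and 24.0 FPKM in wild type, against 53.5 and 54.2 FPKM in knockout, a log2 fold change of 1.14 (SE 0.10, adjusted p = 0.000562). TM7SF2 stood at 5.61 and 7.36 FPKM in wild type, against 6.80 and 7.12 FPKM in knockout, a log2 fold change of 0.11 (95% interval -0.28 to 0.51, adjusted p = 0.557). The ratio of LBR to TM7SF2 within a library was 4.41 and 3.26 in wild type and 7.87 and 7.61 in knockout. After the correction their order turned, with 0.60 for LBR and 1.05 for TM7SF2, so the difference of 1.03 became -0.45. VPS51, which shares exonic sequence with TM7SF2 on the same strand, was far more abundant, at 101 FPKM in both wild-type libraries and 56.8 and 57.7 FPKM in knockout, and the level of TM7SF2 is uncertain for that reason.

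The last steps were divided as well. EBP, the sterol isomerase, was the most abundant of the 29 genes in wild type, at 341 and 436 FPKM, and stood at 184 and 209 FPKM in knockout. All its knockout values were below all its wild-type values, with a log2 fold change of -0.97 (SE 0.17, 95% interval -1.39 to -0.56, adjusted p = 0.00362) that was -0.29 (adjusted p = 0.0363) after the correction. SC5D, the desaturase that follows EBP, stood at 15.5 and 17.3 FPKM in wild type, against 30.6 and 31.5 FPKM in knockout. SC5D rose by 0.92 (adjusted p = 0.000985) on the deposited values but stood at -0.07 after the correction, and its canonical transcript of 6854 bases is the longest of the 29. DHCR7, the reductase that turns 7-dehydrocholesterol into cholesterol, stood at 49.8 and 49.1 against 79.8 and 85.2 FPKM. It rose by 0.74 (SE 0.10, adjusted p = 0.00168), and by 1.18 after the correction, where it was called. The ratio of LSS to EBP within a library was 0.0581 and 0.0415 in wild type and 0.335 and 0.290 in knockout.

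Of the 5 transport and esterification genes, 3 rose, NPC2 fell and SOAT2 was not tested. Among all genes tested, 23.7% rose and 27.1% fell. STARD4, a soluble carrier that moves sterol between membranes, stood at 5.47 and 5.37 FPKM in wild type, against 29.9 and 30.3 FPKM in knockout. It was the lowest of the 28 tested genes in wild type and rank 18 in knockout, a 5.55-fold difference with a log2 fold change of 2.45 (SE 0.10, 95% interval 2.21 to 2.69, adjusted p = 0.000486). After the correction it was 1.63 (95% interval 1.42 to 1.85), still the third highest of the cholesterol genes. The gene lies on hg38 chromosome 5, 111496033 to 111512590, on the minus strand, with 6 exons. An antisense gene that overlaps it, STARD4-AS1, stood at 0.126 and 0.122 FPKM in wild type, against 0.362 and 0.335 FPKM in knockout.

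NPC1 and NPC2 hand cholesterol out of the lysosome together, NPC2 in the lumen and NPC1 in the membrane, and on the deposited scale NPC1 rose and NPC2 fell. NPC1 stood at 21.2 and 21.8 FPKM in wild type, against 30.1 and 31.4 FPKM in knockout and rose by 0.51 (SE 0.10, adjusted p = 0.00505). NPC2 stood at 109 and 133 FPKM in wild type, against 65.6 and 65.0 FPKM in knockout, with a log2 fold change of -0.88 (SE 0.13, adjusted p = 0.00225). The ratio of NPC1 to NPC2 was 0.195 and 0.163 in wild type and 0.459 and 0.483 in knockout. After the correction NPC1 came to 0.18 (adjusted p = 0.0858) and NPC2 to -0.44 (adjusted p = 0.00637), a difference of 0.62 in place of 1.39. On the TPM scale NPC2 was -0.20 (adjusted p = 0.0931). RMC1, which overlaps NPC1 on the other strand, stood at 29.7 and 36.3 against 13.7 and 12.8 FPKM, wild type first. ISCA2, which overlaps NPC2 on the other strand, stood at 22.6 and 28.3 against 8.20 and 9.96 FPKM.

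SOAT1, which esterifies cholesterol for storage, stood at 13.3 and 12.1 FPKM in wild type, against 28.9 and 29.2 FPKM in knockout. Its log2 fold change was 1.19 (SE 0.10, adjusted p = 0.000576) on the deposited values and 0.28 (adjusted p = 0.0392) after the correction, and its transcript of 6840 bases is nearly as long as that of SC5D. SOAT2, the esterifying enzyme of liver and intestine, was at 0.0363 and 0 FPKM in wild type, against 0 and 0.0157 FPKM in knockout, too low to test.

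**Figure D3:**
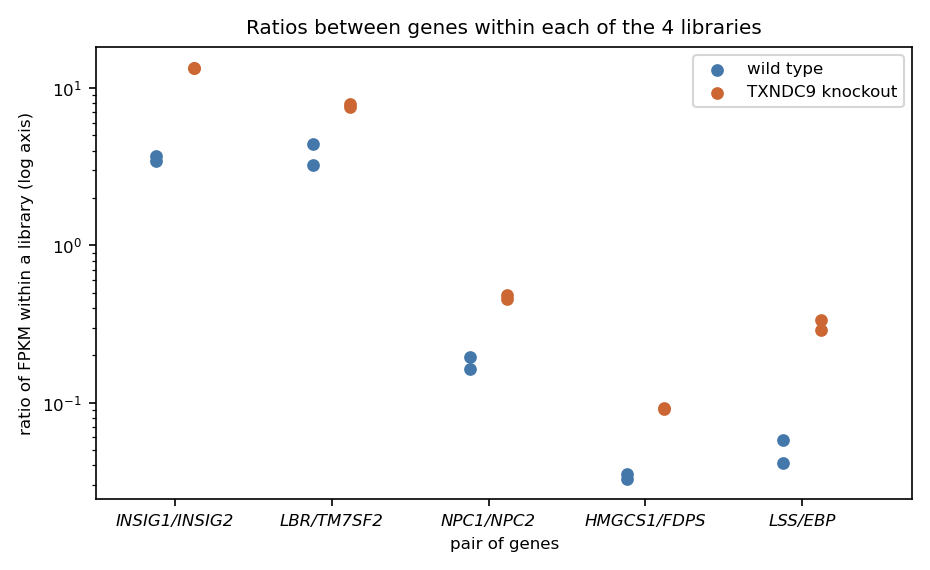
Ratio of the FPKM of 2 cholesterol genes (log axis) within each of the 4 libraries, for INSIG1/INSIG2, LBR/TM7SF2, NPC1/NPC2, HMGCS1/FDPS and LSS/EBP, with wild type in blue and knockout in orange. The pairs were chosen with earlier results of these data known, and the gene with the larger log2 fold change stands first. A higher ratio in knockout therefore follows from that order in all 5 pairs. The ratio went from 4.41 or less to 7.61 or more for LBR/TM7SF2 and from 3.72 or less to 13.5 for INSIG1/INSIG2.

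These ratios are free of the scale of a library, though not of transcript length. HMGCS1 was 0.0353 and 0.0329 of FDPS in wild type and 0.0923 and 0.0915 in knockout, and this difference of 1.42 on the log2 scale was -0.04 after the correction. The difference between LSS and EBP was 2.66 and then 2.05, and that between INSIG1 and INSIG2 did not shrink. Among the 28 genes the log2 fold change and the log2 transcript length had a Pearson correlation of 0.674 and a Spearman correlation of 0.664, and the log2 fold change and the GC percent had correlations of -0.524 and -0.597, as descriptions over genes that share the same 4 libraries. The median length was 3562 bases in the 17 genes that rose, 1002 in the 3 that fell and 1816 in the 8 others. Over all genes tested it was 2866.5 bases, with 5546 in genes called higher and 1433 in genes called lower.

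**Figure D4:**
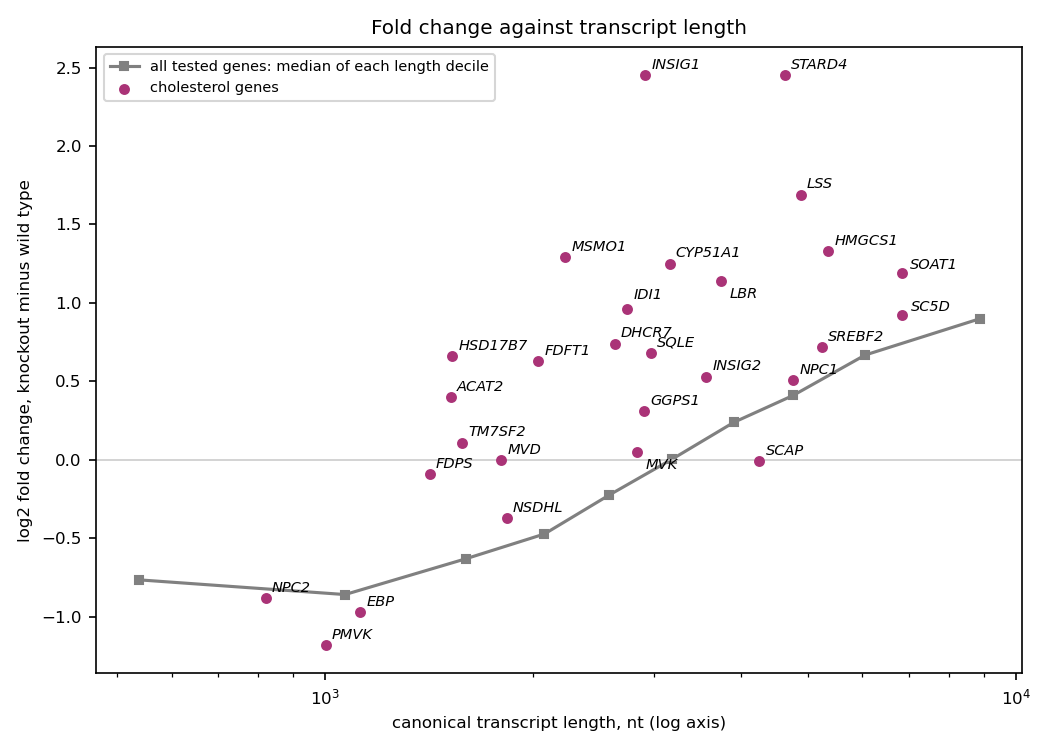
Log2 fold change (knockout minus wild type) against canonical transcript length in bases (log axis) for the 28 cholesterol genes, in purple, with the median of each of 10 length classes of all tested genes in grey. The grey medians climb from -0.765 to 0.900. INSIG1, STARD4, LSS and MSMO1 stand well above them, as do others such as CYP51A1 (1.25) and HSD17B7 (0.66). PMVK, EBP and NPC2 lie near them.

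Exonic sequence was shared with another annotated gene for 15 of the 29 genes, on the same strand for 5, and 4 had named pseudogenes. Whether strand was used in counting is not given in the sources used here, so reads of a gene and of an overlapping partner may not have been told apart. INSIG1, MSMO1, LBR, DHCR7, SC5D, SOAT1 and PMVK had no overlapping gene.

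Genes around the pathway were also followed in 6 lists. Their counts stand beside 23.7% of all genes tested that rose, 27.1% that fell, 14.2% called higher and 15.3% called lower, and a median of -0.09. Of 17 genes that process SREBP or degrade sterol-regulated proteins, 5 rose, 3 fell and 4 were called higher, and the median was 0.34, against 1 called in each direction and a median of 0.03 after the correction. MBTPS2, the site-2 protease that frees SREBP2 in the Golgi, stood at 9.39 and 8.03 FPKM in wild type, against 27.2 and 28.8 FPKM in knockout, with a log2 fold change of 1.68 (adjusted p = 0.000512) and 1.06 after the correction. ERLIN2, a part of the complex that degrades sterol-regulated proteins, stood at 5.94 and 5.77 against 15.2 and 16.1 FPKM (1.40, adjusted p = 0.000532, and 0.74 corrected). PAQR3, a Golgi anchor of the SCAP complex, stood at 4.60 and 4.29 against 10.4 and 10.9 FPKM, a log2 fold change of 1.25 (adjusted p = 0.000627) that was 0.03 after the correction.

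Of 20 tested genes for sterol transport and ester hydrolysis, 9 rose and 3 fell, 5 were called higher and 1 lower, and the median was 0.30, against 1 called higher, 0 lower and a median of 0.06 after the correction. OSBPL8 rose by 1.80 (adjusted p = 0.000512), from 4.43 and 5.04 to 17.2 and 16.3 FPKM, and OSBPL10 by 1.53 (adjusted p = 0.000512), from 6.00 and 6.09 to 18.3 and 17.0 FPKM. Both belong to the oxysterol-binding protein family, and OSBPL10 kept 1.43 after the correction against 0.74 for OSBPL8. NCEH1, a hydrolase of cholesteryl esters that opposes SOAT1, stood at 6.77 and 5.38 FPKM in wild type, against 17.3 and 18.4 FPKM in knockout and rose by 1.55 (adjusted p = 0.000623), or 0.94 after the correction.

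The non-sterol branches, which make ubiquinone and dolichol and prenylate proteins, were counted over 17 genes, of which 4 rose and 8 fell, with 2 called in each direction and a median of -0.12. On the TPM scale 5 were called higher and 0 lower with a median of 0.56, and after the correction 0 were higher and 2 lower with a median of -0.03. PGGT1B, a subunit of a transferase that attaches geranylgeranyl groups to proteins, stood at 4.12 and 2.49 FPKM in wild type, against 10.2 and 10.8 FPKM in knockout (log2 fold change 1.68, adjusted p = 0.00188, and 0.45 corrected). RABGGTA, a subunit of the transferase for Rab proteins, fell from 49.8 and 58.3 to 19.9 and 20.7 FPKM (-1.41, adjusted p = 0.000561, and -0.66 corrected). SRD5A3, which reduces polyprenol to dolichol, fell from 12.0 and 14.6 to 6.18 and 5.73 FPKM (-1.14, adjusted p = 0.00112, and -1.58 corrected).

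**Figure D5:**
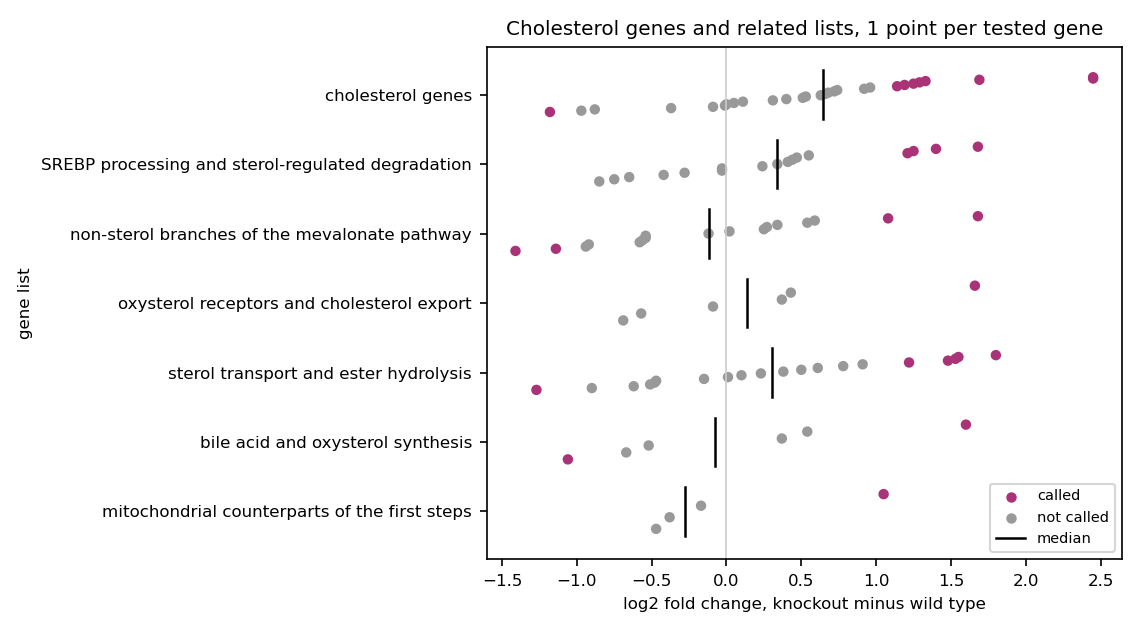
Log2 fold change (knockout minus wild type) of each tested gene in the cholesterol list and 6 related lists, 1 point per gene, with called genes in purple and a black line at the median of each list. The cholesterol genes have a median of 0.64, and the medians of the related lists run from -0.28 to 0.34; the heights of points within a list only separate them.

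Many genes of oxysterol signalling and bile acid synthesis were too low to test. The counts of both lists stand beside 23.7% of all genes tested that rose and 27.1% that fell. Of 11 oxysterol receptor and export genes 6 were tested, with 2 higher, 1 lower and a median of 0.14. MYLIP, a ligase induced by oxysterol receptors, rose from 1.44 and 1.10 to 4.30 and 4.10 FPKM (log2 fold change 1.66, adjusted p = 0.00127). The receptor genes NR1H2, which fell by 0.69 (adjusted p = 0.00316) from 43.3 and 49.5 to 27.7 and 29.7 FPKM, and NR1H3, at 13.3 and 15.8 against 8.95 and 10.6 FPKM (adjusted p = 0.0137), were at -0.02 and 0.13 after the correction. Of 16 bile acid and oxysterol synthesis genes 6 were tested, with 1 higher and 1 lower. CYP39A1, an oxysterol hydroxylase, rose from 1.27 and 0.815 to 3.08 and 3.55 FPKM (1.60, adjusted p = 0.00348), but did not pass after the correction (1.42, adjusted p = 0.0114). HSD17B4, a peroxisomal enzyme that shortens side chains, fell from 96.4 and 113 to 49.8 and 50.2 FPKM (-1.06, adjusted p = 0.000952, and -1.15 corrected). SLC27A5, a bile acid ligase, stood at 24.3 and 35.2 against 17.5 and 19.3 FPKM (-0.67, adjusted p = 0.0219), and the median was -0.08.

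The mitochondrial counterparts of the first steps make and use ketone bodies rather than sterols. Of 5 genes 4 were tested, OXCT1 rose (beside 23.7% of all genes tested) and 3 did not pass the test, and the median was -0.28. OXCT1, the transferase by which cells burn ketone bodies, stood at 57.8 and 46.9 FPKM in wild type, against 106 and 109 FPKM in knockout (log2 fold change 1.05, adjusted p = 0.00134, and 0.73 corrected). BDH1, the dehydrogenase of ketone bodies, stood at 24.7 and 21.3 against 14.8 and 18.5 FPKM (log2 fold change -0.47, adjusted p = 0.0321), wild type first.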

How the data were processed

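Polyadenylated RNA from 2 wild-type and 2 TXNDC9 knockout libraries labelled HepG2 was examined. Per the labels and the methods, the authors used TopHat2 on hg38, then Cufflinks and Cuffdiff, and the deposited values are FPKM for each gene and library. Tool versions, library scaling and strand settings are not given in the sources used here. The deposited average and comparison columns were not used. Of 231916 lines 57979 held values, each identifier stood 4 times and out of register, and identifiers were put back in order before matching to GENCODE release 44 (56935 matched).

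Genes with a mean FPKM above 1 were compared on log2(FPKM + 0.1), a scale that understates changes of low genes, with limma 3.58.1 in R 4.3.3 (trend, Benjamini-Hochberg adjustment over 13246 genes). A gene passed the test at an adjusted p under 0.01 and was called if it also changed at least 2-fold. The correction for length and GC content was a loess curve (span 0.3) per library on canonical transcripts. Scripts were tested on simulated data. Python 3.11.15 was used for counts and figures. Alternatives were a replicate block, pseudocounts of 1 and 0.01, no filter or a mean above 5, an adjusted p under 0.05, TPM, median centring, no trend, the correction with and without the block, and leaving out each library. With 2 libraries against 2, an exact permutation test cannot go below p = 0.333. The files hold no counts, so the depth is unknown.

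The members, the lists, the pairs for ratios and the tests were chosen with earlier results of these data known. Named genes are all 29 members, TXNDC9, and in each related list the 3 tested genes with the largest absolute change; partners in overlap and added markers were named after their values were seen. Some genes that these rules would name are not reported here.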

Additional observations from a re-analysis of the deposited data

How the results depend on the processing

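No call among the cholesterol genes changed with pseudocounts of 1 or 0.01, without a filter, with a mean above 5 FPKM, without a trend or at an adjusted p under 0.05. Deviations of same-numbered libraries had a correlation of -0.0904 over genes. With 2 libraries in each condition this does not settle whether the numbers 1 and 2 pair them. With the replicate block the calls of cholesterol genes were 1 lower and 8 higher as before, with 2146 lower and 1960 higher among all genes. A mean above 5 FPKM left 1220 genes called higher. On the TPM scale 447 genes were lower and 4380 higher, 0 and 18 of them cholesterol genes and 0 and 31 of the related lists, the cholesterol median was 1.32, and TXNDC9 (0.12), FDPS (0.59), NSDHL (0.31) and SCAP (0.67) turned positive. Centring on the median gave 3 cholesterol genes and 7 genes of the related lists lower, a cholesterol median of 0.50, and MVK, MVD and TM7SF2 at -0.10, -0.14 and -0.03, and LBR was no longer called; higher calls were 35.8% of all calls, against 48.3% as deposited, 90.7% on the TPM scale and 46.5% after the correction. The correction for length and GC content left 969 genes lower and 841 higher (975 and 841 with the replicate block), with 0 cholesterol genes lower and 3 genes of the related lists higher in both, kept 4 of the 9 calls of cholesterol genes, and turned FDPS (0.60), SCAP (0.32), SC5D (-0.07) and INSIG2 (-0.03), with the same values with the block. The cause of these changes was not tested.

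Leaving out 1 library gave 0 to 2633 genes lower and 0 to 2136 higher. Among the cholesterol genes 0 to 3 were lower and 0 to 9 higher, and in the related lists 0 to 8 were lower and 0 to 15 higher. The 0 came from leaving out either knockout library (limma, smallest adjusted p 0.016 and 0.0232), where the lone library is assumed to vary like the others. The 3 lower came without wild-type library 1, with EBP at -1.15 and NPC2 at -1.03. Log2 fold changes that turned sign ran from -0.12 to 0.22 for MVK, -0.18 to 0.18 for MVD, -0.22 to 0.04 for FDPS, -0.08 to 0.30 for TM7SF2 and -0.08 to 0.07 for SCAP; MVD was -0.03 without knockout library 2, and SCAP 0.00 without knockout library 1. The cholesterol median stayed between 0.59 and 0.69. With 2 libraries in each condition and no counts, small differences could not be resolved.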
